A study of Mus musculus with 4 samples.

Results

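The matricellular proteins are secreted into the extracellular matrix, where they tune how cells attach, move and respond to growth factors rather than building the matrix itself. They bind collagens, fibronectin and cell-surface receptors such as integrins, and several of them store, release or answer to TGF-beta. In mammary tumours they are known mostly as products of the stroma, though tumour cells with mesenchymal features also make them. The gene group described here holds 9 such genes, given by name: Postn, Tgfbi, Thbs1, Thbs2, Tnc, Spp1, Sparc, Fbln1 and Fbln2. A probe set was taken for a gene where the platform annotation gave that symbol and no other, which found 15 probe sets for 8 of the 9 genes among 22626 probe sets and 12393 genes in all. Spp1, the gene of osteopontin, had no such probe set and is not analysed here. A probe set that the annotation gives to Thbs1 together with another gene was left out by the same rule.

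The signals came from 4 Affymetrix Mouse 430A 2.0 arrays of NF639 cells, a line established from a mammary tumour of a mouse that carries an ErbB2 (Her-2/neu) transgene under the mouse mammary tumour virus promoter. The resistant group is a pool of NF639 cells that withstand EGCG (epigallocatechin gallate), a polyphenol abundant in green tea, with 2 arrays, and the original group is the unselected population of the same line, with 2 arrays. The series describes RNA from independent experiments but does not tie a replicate number to an experiment or give the culture's EGCG exposure at harvest. The comparison asks which transcripts differ between the resistant pool and the population it came from. The values are MAS5 signals, 1 background-adjusted intensity per probe set and array on a linear scale.

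Across the arrays the median signals were 129 and 114 in the resistant group and 135 and 115 in the original group. The control for 18S ribosomal RNA read 277.6 and 373.7 in the resistant group and 269.3 and 834.9 in the original group. Original array 2 thus stood apart on this control, and its part in the differences below was not tested. The spiked-in BioB, BioC and BioDn transcripts (7 probe sets) were brighter on array 2 than on array 1 by 1.48 to 2.29 times in the resistant group and by 1.39 to 2.11 times in the original group, so values are given for arrays of the same number as well. Against the label of a breast cancer line, of the epithelial markers Epcam, Cdh1, Krt8, Krt18, Krt19, Erbb2, Erbb3 and Cldn4, only Erbb2 passed the filter on dim probe sets, with signals of 280.7 and 326.2 in the resistant group and 319.7 and 299.4 in the original group. Of 10 markers of fibroblasts and stroma 7 passed the filter, and Lum, Fap and Thy1 did not. Their summed signal was 20196.4 and 20350.6 in the resistant group and 20953.7 and 21200.3 in the original group, most of it from S100a4, with 12131.6 and 14255.5 in the resistant group and 13401 and 14860.8 in the original group. None of the 5 endothelial markers passed the filter, and their summed signal was 57.1 and 32.8 in the resistant group and 40.7 and 70.1 in the original group. Of 6 measured leukocyte markers, Cd68 and Lyz2 passed the filter, and Ptprc, which marks all leukocytes, had signals of 12 and 7.4 in the resistant group and 8.6 and 14.8 in the original group. In RNA from a whole culture, a change in the number of cells that make a transcript cannot be told apart from a change in the amount per cell.

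Of the 15 probe sets, 6 passed the filter, which kept probe sets with a mean log2 signal over the 4 arrays at or above the 40th percentile, a signal of 49.1. They represent Postn, Sparc, Thbs1 and Fbln2. The other 9 probe sets, all those of Thbs2, Tnc, Fbln1 and Tgfbi, lay below it. In the resistant group Postn was higher, Thbs1 lower on each of its probe sets, and Fbln2 higher on 1 array. On its brighter probe set Sparc differed by less than the gap between the resistant arrays, though by more than that between the original arrays. None of the 6 passed the test over all probe sets (limma, Benjamini-Hochberg adjusted p of 0.369 to 0.882), where 23 of 13576 probe sets, or 0.169%, passed. At an unadjusted p under 0.05 there were 3 of the 6, against 7.35% of all tested probe sets. When limma was fitted with a block for the replicate number, 4 of the 6 passed, where 5.23% of all probe sets passed. They were 2 higher, against 2.23% of all probe sets, and 2 lower, against 3.00%. With 1 residual degree of freedom in the blocked fit, the prior degrees of freedom were estimated as infinite, which sets every variance to the trend of the whole array and gives very small p-values. An exact permutation test of 2 arrays against 2 cannot give a two-sided p below 0.333.

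**Figure D1:**
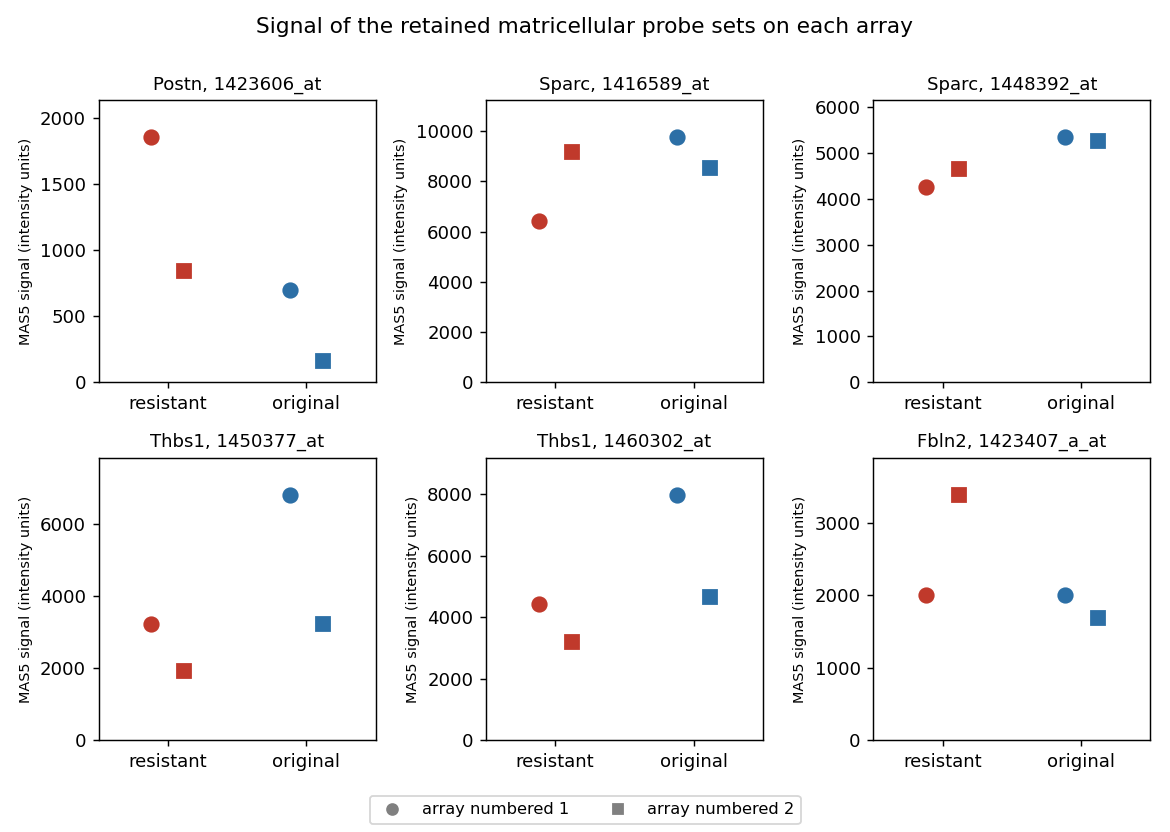
MAS5 signal in intensity units (vertical axes, each from 0) of the 6 matricellular probe sets past the filter on each array, with the resistant group (red) left of the original group (blue). Circles are arrays numbered 1 and squares arrays numbered 2. Postn lies above the original arrays on each resistant array, and Thbs1 lies below on each of its probe sets.

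For Postn and Fbln2, the members that passed higher with the block but not without it, the bases just before the RefSeq start sites are given as their annotated promoters (GRCm38.p6, the 250 bases before each start, 5′ to 3′ on the strand of the gene). Postn has 2 annotated starts in that table and Fbln2 has 1. Capitals mark matches to the motifs searched on both strands: TATAAA (the TATA box), TGANTCA (the AP-1 site), GGAATG (the TEAD site) and CCAAT (the CCAAT box).
Start 1 of Postn, chr3:54359017-54359266, + strand: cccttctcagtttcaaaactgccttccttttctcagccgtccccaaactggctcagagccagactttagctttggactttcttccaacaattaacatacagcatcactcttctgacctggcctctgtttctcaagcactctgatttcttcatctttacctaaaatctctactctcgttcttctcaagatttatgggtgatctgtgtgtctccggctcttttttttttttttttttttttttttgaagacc
Start 2 of Postn, chr3:54360857-54361106, + strand: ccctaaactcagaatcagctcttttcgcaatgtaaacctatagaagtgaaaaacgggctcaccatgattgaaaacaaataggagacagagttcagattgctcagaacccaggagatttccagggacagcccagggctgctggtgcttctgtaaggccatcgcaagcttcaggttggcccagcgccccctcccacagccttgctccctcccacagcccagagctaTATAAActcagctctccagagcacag
Start of Fbln2, chr6:91212514-91212763, + strand: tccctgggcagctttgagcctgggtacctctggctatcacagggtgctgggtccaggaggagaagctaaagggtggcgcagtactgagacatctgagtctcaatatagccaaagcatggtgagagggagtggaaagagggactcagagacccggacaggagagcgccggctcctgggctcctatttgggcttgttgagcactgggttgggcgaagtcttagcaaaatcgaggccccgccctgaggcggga
The only match in these windows was a TATAAA whose first base lies 26 bases before the second Postn start. The share of all 32851 promoter windows of 250 bases with a match was 12.4% for TATAAA, 6.75% for TGANTCA, 12.6% for GGAATG and 33.8% for CCAAT. The arrays do not tell which start a transcript used.

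Postn and Tgfbi encode relatives built from FAS1 domains, which bind collagen and integrins. Postn encodes periostin, which promotes collagen cross-linking and is induced by TGF-beta in many cell types. The Postn signal was 1859.8 and 846.6 in the resistant group and 697.4 and 162.6 in the original group. The groups did not overlap, but the lower resistant array lay near the higher original array, and array 1 was the higher one in each group. The means were 1353.2 ± 716 in the resistant group and 430 ± 378 in the original group (SD, n = 2 each), a ratio of 3.15. On the log2(signal + 3) scale the difference was 1.88 ± 0.553 (SE), with a 95% interval from 0.66 to 3.11. Between arrays of the same number it was 1.41 for number 1 and 2.36 for number 2, while array 2 stood below array 1 by a log2 difference of -1.13 within the resistant group and -2.08 within the original group. The gap within the original group was thus larger than the difference between the groups, and Postn did not pass without a block (limma adjusted p = 0.369). It passed with the replicate block (limma adjusted p = 1.33e-20, 95% interval 1.52 to 2.25). Its size rested on single arrays: the log2 difference was 2.92 without original array 1, 2.45 without resistant array 2, 1.32 without resistant array 1 and 0.84 without original array 2. The first pair of these passed and the others did not, but each fit leaves 1 array in a group, whose spread is then assumed to equal that of the other group.

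The other FAS1 gene, Tgfbi, named for its induction by TGF-beta, was dim on all 4 of its probe sets. The probe set 1415871_at read 0.8 and 1.5 in the resistant group and 2.6 and 2.9 in the original group, and 1448123_s_at read 7.9 and 5 in the resistant group and 9.2 on each original array. The probe set 1437463_x_at read 27.2 and 23.2 in the resistant group and 2.4 and 10.4 in the original group, and 1456250_x_at read 4.4 on each resistant array and 4.4 and 29.1 in the original group. The 4 probe sets differed in direction at signals below the filter. The ending _x_at marks probes that the array's design lists as able to bind other transcripts, so no direction is given for Tgfbi.

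The thrombospondins are large secreted glycoproteins that bind many partners. Thbs1 encodes thrombospondin-1, which activates latent TGF-beta, inhibits angiogenesis and binds the receptors CD47 and CD36. On 1450377_at the Thbs1 signal was 3207.4 and 1924.8 in the resistant group and 6804.6 and 3230.3 in the original group. On 1460302_at it was 4442.9 and 3195.8 in the resistant group and 7995 and 4648.8 in the original group. On each probe set both resistant arrays lay below both original arrays, by a narrow margin between resistant array 1 and original array 2, and array 1 was again the higher one in each group. The mean signal was 2566 ± 907 in the resistant group and 5017 ± 2527 in the original group on the first probe set (SD, n = 2 each). On the second it was 3819 ± 882 in the resistant group and 6322 ± 2366 in the original group (SD, n = 2 each). The log2 difference was -0.92 ± 0.327 (SE) on 1450377_at and -0.69 ± 0.256 (SE) on 1460302_at, with 95% intervals from -1.64 to -0.19 and from -1.26 to -0.13. Between arrays of the same number it was -1.09 and -0.75 on 1450377_at, and -0.85 and -0.54 on 1460302_at. Neither probe set of Thbs1 passed without a block (limma adjusted p = 0.548 and 0.557), and each passed with it (limma adjusted p = 3.32e-09 for 1450377_at and 3.89e-06 for 1460302_at). Leaving out original array 2 gave -1.45 for 1450377_at and -1.08 for 1460302_at, and leaving out original array 1 gave -0.38 and -0.30. Of these only the first passed, in a fit that sets 1 original array against the spread of the resistant arrays.

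Thbs2, which encodes the related anti-angiogenic thrombospondin-2, lay far below the filter on each of its probe sets. On 1450663_at its signal was 17.5 and 19.8 in the resistant group and 2.4 and 3.7 in the original group. On 1422571_at it was 0.6 and 14.2 in the resistant group and 1.1 and 11.6 in the original group. The groups were apart on the first and overlapped on the second. No fold is given at these signals.

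Tnc, Sparc and Spp1 belong to 3 separate families. Tnc encodes tenascin-C, an anti-adhesive glycoprotein of wounds and tumour stroma. The Tnc signal was 26.4 and 52.9 in the resistant group and 51.8 and 29.5 in the original group, with overlapping groups and 1 array of each above the filter's signal. Sparc encodes osteonectin, a calcium- and collagen-binding protein that loosens cell adhesion. On 1416589_at the Sparc signal was 6419.3 and 9180.9 in the resistant group and 9773.8 and 8555.3 in the original group, and the groups overlapped. On 1448392_at it was 4261.4 and 4657.2 in the resistant group and 5352.8 and 5273.6 in the original group, and both resistant arrays were the lower ones. The log2 difference was -0.25 ± 0.203 (SE) for 1416589_at and -0.26 ± 0.161 (SE) for 1448392_at. Without a block the 95% intervals ran from -0.70 to 0.20 and from -0.61 to 0.10. With the block they ran from -0.47 to -0.04 and from -0.50 to -0.01, in a fit that sets every variance to the trend of the whole array. These data do not settle the direction for Sparc. Neither Sparc probe set passed without a block (limma adjusted p = 0.882 and 0.827) or with it (limma adjusted p = 0.194 and 0.287). For 1416589_at the sign differed between the numbers, at -0.61 for number 1 and 0.10 for number 2, and for 1448392_at the values were -0.33 and -0.18.

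The fibulins are calcium-binding proteins of basement membranes and elastic fibres. Fbln2, which encodes fibulin-2, had signals of 2010.9 and 3392.8 in the resistant group and 2009.8 and 1693.4 in the original group. Resistant array 2 stood above the other arrays, while resistant array 1 and original array 1 read almost the same. The means were 2702 ± 977 in the resistant group and 1852 ± 224 in the original group (SD, n = 2 each), a log2 difference of 0.50 ± 0.236 (SE) with a 95% interval from -0.02 to 1.02. Fbln2 did not pass without a block (limma adjusted p = 0.709) and passed with it (limma adjusted p = 0.0209), although the difference was -5.4e-05 for arrays numbered 1 and 1.00 for arrays numbered 2. Without resistant array 2 the difference was 0.12. Fbln1, which encodes fibulin-1, had signals of 41.9 and 37.5 in the resistant group and 50.3 and 35.7 in the original group on 1451119_a_at. On 1422540_at Fbln1 read 17.7 and 3.4 in the resistant group and 4.8 and 8.2 in the original group. The groups overlapped on each Fbln1 probe set.

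**Figure D2:**
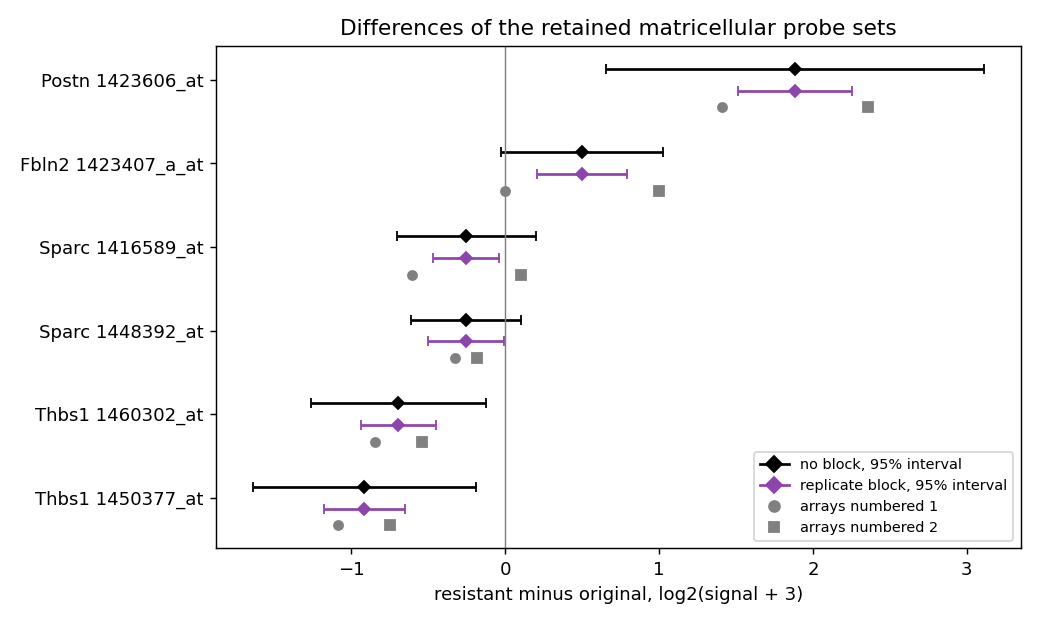
Resistant minus original on the log2(signal + 3) scale (horizontal axis) for the 6 matricellular probe sets past the filter. Diamonds are limma estimates with 95% intervals without a block (black) and with the replicate block (purple), and grey points are the differences between arrays numbered 1 (circles) and numbered 2 (squares). The estimates run from -0.92 for Thbs1 to 1.88 for Postn. For Fbln2 the circle lies on 0 and the square above it, and for Sparc 1416589_at the points lie on either side of 0.

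**Figure D3:**
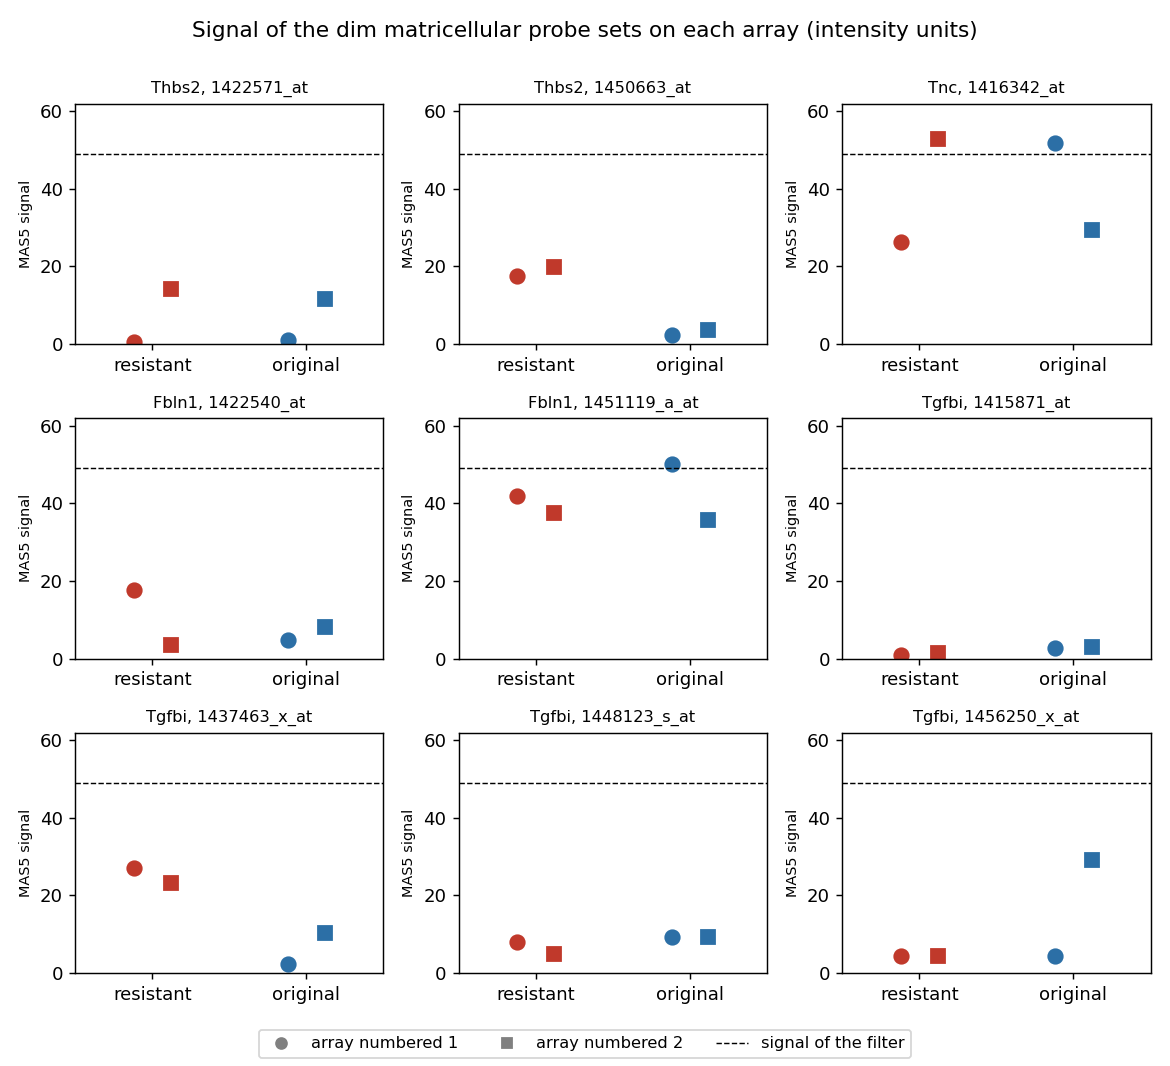
MAS5 signal in intensity units (vertical axes, each from 0) of the 9 matricellular probe sets below the filter, with the resistant group (red) left of the original group (blue). The dashed line is the filter's signal of 49.1; circles are arrays numbered 1 and squares arrays numbered 2. Only Tnc and Fbln1 1451119_a_at have an array above that line.

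The arrays of the 6 retained probe sets did not overlap between the groups for 4 of them, 1 higher and 3 lower, against 36.0% of all tested probe sets (17.7% higher and 18.3% lower). Over the 4 retained genes the median log2 difference was 0.12, against 0.02 over all 7510 genes tested, with 2 genes fitted above 0 and 2 below. That median was -0.17 without resistant array 2 and 0.44 without resistant array 1, so it has no settled direction. Array 1 was brighter than array 2 in each group for 3 of the 6 probe sets, those of Postn and Thbs1, as for 38.6% of all tested probe sets. By the sum of squared differences between the centred log2 values of the 4 arrays, the 3 genes most like Postn were Selenop, Tnfrsf11b and Akr1c14. Selenop, which encodes the selenium carrier selenoprotein P, had signals of 1281 and 565.3 in the resistant group and 482.2 and 99.5 in the original group. Its sum of squares was 0.0169. Tnfrsf11b, the gene of the decoy receptor osteoprotegerin, had signals of 163.3 and 95.8 in the resistant group and 53.1 and 21.3 in the original group and a sum of squares of 0.462. Akr1c14, a hydroxysteroid dehydrogenase gene, had 176.4 and 48.1 in the resistant group and 43.5 and 16.1 in the original group and a sum of squares of 0.588. For Akr1c14 only resistant array 1 lay above the filter's signal of 49.1. For Tnfrsf11b original array 2 lay below it. On the resistant arrays and the original arrays alike, each of these genes was brighter on array 1. That follows from their choice by likeness to Postn, which was brighter on array 1 as well. Likeness over 4 arrays is a description only, since 7510 genes were searched.

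Other genes of the matricellular families were taken from a list of 27, of which 24 had a probe set and 10 passed the filter. Tnr, Tnn and Efemp2 had no probe set of 1 symbol, and Thbs4, Comp, Tnxb, Sparcl1, Smoc2, Spock1, Spock2, Spock3, Fbln5, Fbln7, Efemp1, Fstl1, Ibsp and Dmp1 lay below the filter. None of the 10 above the filter passed in limma without a block, where 0.226% of all genes tested passed. At an unadjusted p under 0.05 there were 2 of the 10, against 7.35% of all tested probe sets. With the block 2 passed higher and 3 lower, where 5.77% of all genes passed, 2.70% higher and 3.06% lower. The ones higher were Mgp, which encodes the calcification inhibitor matrix Gla protein, and Thbs3, a thrombospondin of bone and cartilage. Thbs3 had signals of 235.5 and 327 in the resistant group and 152.8 and 70.3 in the original group, with differences of 0.61 and 2.17 by number. Mgp had signals of 1427.5 and 131.9 in the resistant group and 588.3 and 21 in the original group, so that array 1 stood far above array 2 in each group. The ones lower were Ccn1, Ccn2 and Igfbp7. Ccn1, which encodes an integrin-binding protein induced by growth factors and by YAP, had signals of 1458.9 and 3741.8 in the resistant group and 3690.1 and 6782.7 in the original group, a log2 difference of -1.10 ± 0.39 (SE). Here array 2 was the brighter one in each group, the reverse of Thbs1. Ccn2, the connective tissue growth factor gene, had signals of 1455.9 and 5496.2 in the resistant group and 3516.4 and 4957.8 in the original group, with differences of -1.27 and 0.15 by number. Igfbp7, which encodes a secreted IGF-binding protein, had 1734.4 and 1657.6 in the resistant group and 3964.9 and 1552.5 in the original group, and only array 1 of the original group stood apart. The list's median log2 difference was 0.17 over 10 genes.

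Of 18 genes for receptors that bind these proteins, 11 passed the filter. None of the 11 passed in limma without a block, where 0.226% of all genes passed. At an unadjusted p under 0.05 there were 2 of the 11, against 7.35% of all tested probe sets. Itga5 alone passed with the block, higher. A count of 1 in 11 genes is near the 5.77% of all genes that passed with the block. Itga5, a fibronectin receptor subunit, had signals of 1169.9 and 2234.4 in the resistant group and 1232.4 and 1022.5 in the original group, a log2 difference of -0.08 for number 1 and 1.12 for number 2. Itgav, whose integrins bind periostin and osteopontin, had 4708.7 and 5775.9 in the resistant group and 5582.2 and 5651.2 in the original group. Cd44, a receptor of osteopontin, and Cd47, a receptor of thrombospondin-1, also had overlapping groups, with log2 differences of -0.37 and 0.09 for Cd44 and -0.42 and 0.14 for Cd47 by number. Cd36, the other thrombospondin-1 receptor, lay below the filter, as did Itga4, Itga8, Itga9, Itgb3, Itgb6 and Ptprz1. The median over the 11 genes was -0.05.

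Of 17 genes for matrix molecules that matricellular proteins bind, 16 had a probe set and 12 passed the filter. Fbn1 had no probe set of 1 symbol, and Col4a1, Col4a2, Eln and Nid1 lay below the filter. Vcan, the gene of the proteoglycan versican, passed without a block, lower (limma adjusted p = 0.0128), and it was the 1 gene of the 4 pathway lists that did. Its signal was 26.9 and 6.7 in the resistant group and 270.1 and 457.9 in the original group. The resistant signals lay below the filter's signal of 49.1, so Vcan was kept through its original arrays, and with no filter it did not pass (limma adjusted p = 0.156). With the block 4 of the 12 passed higher, against 2.70% of all genes, and 3 lower, against 3.06%. Those higher were Col3a1, Col1a1, Col6a1 and Fn1, which encode collagen chains and fibronectin. Col3a1, a fibrillar collagen chain, had signals of 1714.8 and 782.6 in the resistant group and 325.9 and 257.7 in the original group, a log2 difference of 1.99 ± 0.321 (SE) that just missed the threshold without a block (limma adjusted p = 0.05004). Col1a1 had 277.3 and 412.1 in the resistant group and 172.5 and 164.4 in the original group. Col6a1, a chain of the beaded microfibrils of collagen VI, had 889.7 and 304.9 in the resistant group and 454.4 and 188.9 in the original group, with overlapping groups. Fn1 had 11392 and 11030.5 in the resistant group and 11171.6 and 6309 in the original group, where only original array 2 stood apart. Those lower were Vcan, Col1a2 and Lamb1. Lamb1, a laminin chain gene, had 1465.1 and 1173 in the resistant group and 2108.5 and 1749.8 in the original group, with log2 differences of -0.53 and -0.58 by number. Col1a2, whose chain joins that of Col1a1 in type I collagen, had 2427.3 and 3228.5 in the resistant group and 4171.7 and 4416 in the original group, a log2 difference of -0.62, while that of Col1a1 was 0.99. The median over the 12 genes was 0.05. Col1a1, Col1a2 and Col3a1 are also on the list of fibroblast and stromal markers, which holds Dcn as well. Of that list 7 genes passed the filter and none passed in limma without a block, where 0.226% of all genes passed. At an unadjusted p under 0.05 there were 4 of the 7, against 7.35% of all tested probe sets. With the block 3 of the 7 passed higher, against 2.70% of all genes, and 2 lower, against 3.06%. Those higher were Col1a1, Col3a1 and Pdgfra. The signals of Pdgfra were 966 and 270.4 in the resistant group and 489.9 and 196 in the original group, with overlapping groups. Dcn, the gene of decorin, was one of those lower, with signals of 124.9 and 37.9 in the resistant group and 729.1 and 136.7 in the original group. The part of such markers in the Postn difference was not tested. Of 7 basal and myoepithelial markers only Acta2, the smooth muscle actin gene, passed the filter, and Krt5, Krt14, Krt17, Trp63, Myh11 and Oxtr did not. Acta2 had signals of 1164.6 and 2854.7 in the resistant group and 932.7 and 295.2 in the original group. Its log2 differences by number were 0.32 and 3.26. It did not pass without a block (limma adjusted p = 0.326) and passed higher with it (limma adjusted p = 1.74e-21), as did 2.70% of all genes. Acta2 made up most of the summed signal of the 7 markers, 1314.1 and 3089.7 in the resistant group and 1032.7 and 406.1 in the original group.

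Of 16 enzymes that cleave or modify matricellular proteins, 10 passed the filter, none passed in limma without a block or had an unadjusted p under 0.05 there, and Adamts4 and Htra1 passed lower with it, against 3.06% of all genes. Adamts4, an aggrecan- and versican-cleaving protease gene, had signals of 570.6 and 213.4 in the resistant group and 1192.5 and 430.5 in the original group, with log2 differences of -1.06 and -1.004 by number. Htra1, a secreted serine protease gene, had 7811.1 and 9967.1 in the resistant group and 11087.2 and 11915.5 in the original group, a log2 difference of -0.38. Bmp1, a metalloprotease gene whose product matures collagens and binds periostin, had 439.5 and 635.1 in the resistant group and 431.3 and 386.3 in the original group and passed in neither fit. Plg, Mmp3, Mmp7, Adamts5, Ctsk and F2 lay below the filter. The median over the 10 genes was 0.09.

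**Figure D4:**
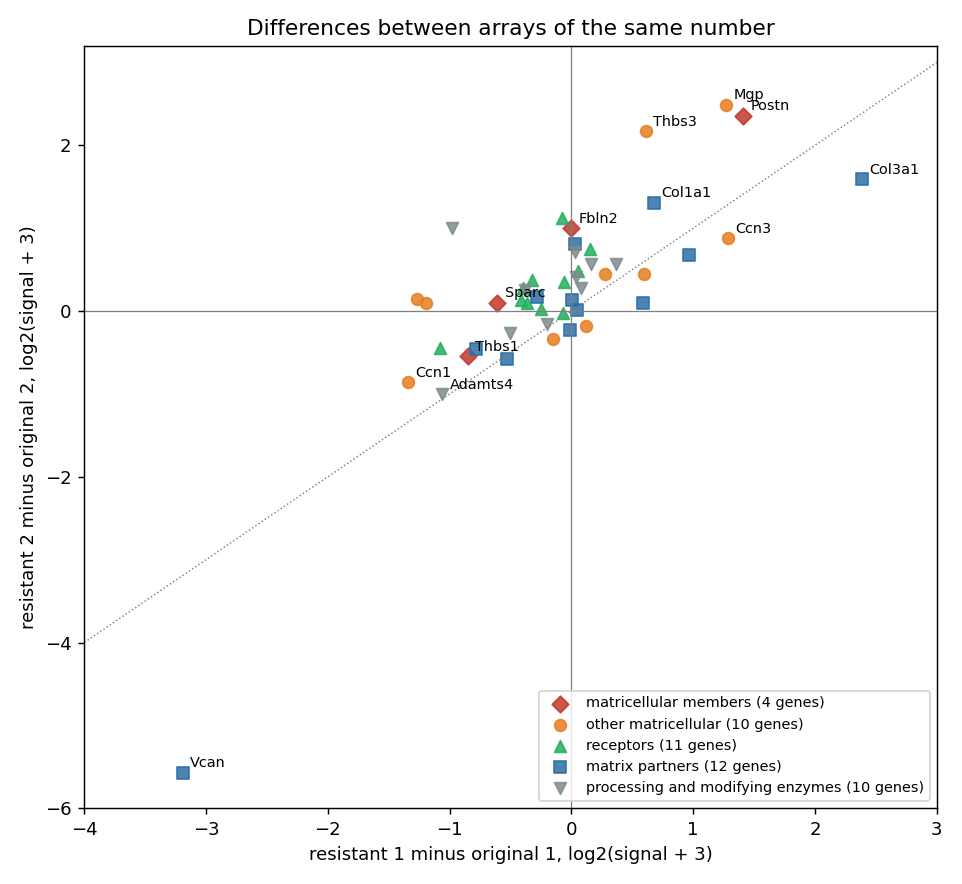
Difference between the arrays numbered 1 (horizontal axis) and between those numbered 2 (vertical axis), each resistant minus original on the log2(signal + 3) scale, for the retained genes of the matricellular group and the 4 pathway lists; the dotted line marks equal differences. Names mark the 4 matricellular genes and genes with a fitted difference of at least 0.9 in size. Postn, at 1.41 and 2.36, and Thbs1, at -0.85 and -0.54, keep their sign in each number, whereas Fbln2 and the brighter Sparc probe set do not.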

How the data were processed

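RNA from 2 resistant and 2 original NF639 cultures was measured on 1 array each. The deposited values are MAS5 intensities per probe set, as the submitters' processing notes name MAS5; no version is stated there. The authors' values share a common 2% trimmed mean per array, so a global shift of RNA content would be scaled away. Signals are printed as deposited. For the tests, 64 control probe sets were left out, arrays were scaled again to a common 2% trimmed mean, and log2(signal + 3) was taken, so that changes at low signals are understated. Probe sets under the 40th percentile of the mean log2 signal were left out, which kept 13576. The difference of resistant minus original was estimated with limma 3.58.1 under R 4.3.3 (lmFit, then eBayes with a trend), with two-sided p-values adjusted by Benjamini-Hochberg over all kept probe sets and a threshold of 0.05. A gene took its brightest kept probe set. The fit was tested on simulated data. The number of arrays limits the precision, and p-values measure the spread between these samples only.

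Gene names came from the platform annotation (20380 probe sets with 1 symbol, 691 with several). Named genes are the members whatever their test, list genes called in either fit, and the 3 genes nearest to Postn; Itgav, Cd44, Cd47, Cd36, Bmp1 and the single cell type markers were named after their values were seen. The members and lists were chosen with earlier results of these data known. Promoter sequences are RefSeq's for GRCm38.p6, matched by symbol for 8 of the 9 members. Signals of different probe sets have no common scale; sums over a marker list are compared between arrays only.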

Additional observations from a re-analysis of the deposited data

How the results depend on the processing

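Postn, Fbln2 and the brightest probe set of Thbs1 kept their sign in all 13 alternatives, 1 of which took the median of a gene's probe sets. Most of these could not change a sign, since the filters, the variance trend and the block leave the estimate as it is. For Postn and Thbs1, whose groups do not overlap, leaving out 1 array cannot reverse it either. The count of kept signs is therefore no measure of support. In the fits of all 4 arrays Postn, Fbln2 and the brightest Thbs1 probe set passed only with the replicate block. The other Thbs1 probe set also stayed negative and, with all 4 arrays, passed only with the block. The brightest Sparc probe set ranged from -0.51 to 0.0056 when 1 array was left out, positive only without resistant replicate 1. The other Sparc probe set ranged from -0.32 to -0.19 there, a sign that its lack of overlap between the groups fixes in advance. Sparc passed in no alternative. The number of probe sets passing was 23, and 710 with the replicate block, 10 with a filter at the 60th percentile, 8 with quantile normalization, 5 with no filter and 0 without a variance trend (limma, 922 at an unadjusted p under 0.05); leaving out 1 array gave 68 to 111. Of the matricellular probe sets 4 passed with the replicate block, and 0 to 1 when 1 array was left out. The median difference over the members ranged from -0.17 to 0.44 when 1 array was left out. The 4 pathway lists held 10, 11, 12 and 10 genes past the filter. Of these 1 passed, where 0.226% of all genes passed, and 15 passed with the replicate block, where 5.77% did. With the deposited values without scaling 2 passed, where 26 of 13576 probe sets did. No pathway gene passed with no filter, with a filter at the 60th percentile, with quantile normalization or without a variance trend. The cause of these shifts was not tested. The labels do not say that a replicate number pairs samples. The deviations of arrays 1 and 2 of the groups correlated at 0.35 over 13576 probe sets, which are not independent. The block thus rests on the spiked controls, which, as added transcripts, do not show that cultures of the same number belong together. Between the groups the log2 values correlated (Pearson) at 0.973 for number 1 and 0.972 for number 2. Within the resistant group they correlated at 0.973, and within the original group at 0.975. No member below the filter passed when the filter was dropped. Dim signals limit what can be said of Thbs2, Tnc, Fbln1 and Tgfbi.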
